A study of Mus musculus with 10 samples.

Results

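The genes described here belong to the secondary (specific) and tertiary (gelatinase) granules of neutrophils and were followed through 10 RNA sequencing libraries: Ltf, Camp, Ngp, Lcn2, Mmp8, Mmp9, Cd177, Lyz2 and Itgb2l. They were taken by gene symbol. All 9 were found among 22923 symbols, and 8 of the 9 had a usable value in every library. Ngp is listed at exactly 0 in the control granulocytes although it stood at 39818 FPKM in the matching library, so that 0 was taken as a failed estimate and counted as missing. FPKM counts sequenced fragments per kilobase of transcript and per library size, and is corrected for length, so levels can be set against each other between genes.

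Granule proteins of neutrophils are made in a fixed order as the cells mature in the bone marrow. Proteins of the primary granules, such as myeloperoxidase, come first, those of the secondary granules follow at the myelocyte stage, and those of the tertiary granules come last. The transcription factor C/EBP epsilon is known to be needed for the secondary granule genes, and cells released into the blood carry the proteins while making little of their transcripts.

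The libraries came from C57bl/6 mice at 4 weeks of age. Cycling and quiescent CD4+CD8+ thymocytes came from the thymus, and large pre-B cells, small pre-B cells and mature granulocytes from the bone marrow. Control mice were Dyrk1a flox/flox, Mx1-Cre-, and the others, labelled CKO here, were Dyrk1a -/-, Mx1-Cre+. Each library pooled 2 mice and each population had 1 library per genotype. DYRK1A is a protein kinase, and Cre from the interferon-responsive Mx1 promoter is active in most blood cells and in other tissues once induced. The labels name no inducer, and control mice without Cre differ from the others by the transgene as well as by Dyrk1a. The gene-level value of Dyrk1a was not lower in any CKO-labelled library (for example 32.1 FPKM in control granulocytes, with 41.9 FPKM in the CKO-labelled ones). The labels do not name the deleted part, and every direction by genotype rests on them.

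Depth was not given. The summed FPKM lay between 360394 and 431868 for the lymphoid libraries, and was 830006 for control and 1074258 for CKO-labelled granulocytes. S100a8, which encodes a subunit of calprotectin and is among the most abundant neutrophil transcripts, is listed at 0 in control granulocytes and made up 22.9% of the sum in the CKO-labelled library, and S100a9 is listed at 0 in both. The granulocyte label was borne by its defining markers: the G-CSF receptor Csf3r stood at 935 and 848 FPKM and the chemokine receptor Cxcr2 at 938 and 866 FPKM. Ly6g, another marker of these cells, was looked for but matched no row, so it was not analysed here. Summed over 6 B lineage genes the granulocyte libraries held 13.4 and 19.6 FPKM, against 1450 to 3437 FPKM in the pre-B libraries.

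The promoters are shown first because the members share a pattern of expression and their regulators have known binding letters. Of the 9 members, 8 (those other than Mmp9) were matched to RefSeq promoters (GRCm38.p6), which were searched over the 250 bases before the start on both strands. The letters of a C/EBP site (TTGCNNAA, or TTNNGCAA on the other strand) were found in 4 of 8 members, Ltf, Ngp, Lcn2 and Mmp8, and in 9.57% of all 32817 promoters. The PU.1 core (GAGGAA or TTCCTC) was found in 5 of 8 members, Ltf, Lcn2, Mmp8, Cd177 and Itgb2l, and in 23.2% of all promoters. A TATA box (TATAAA or TTTATA) was found in 1 of 8, Cd177, and in 12.4% of all promoters. For Lcn2 the whole searched window, with its C/EBP and PU.1 letters, lay after the earliest annotated start and so inside the annotated gene. For Camp only 89 of the 250 bases lay before that gene's earliest annotated start. A match is a description of letters, not of a bound site. Below are those of the members with the C/EBP letters in the part before the earliest annotated start, and then the one of Lyz2, whose levels are described apart from the others. The searched promoters of Lyz2 and Camp held none of these letters. Each is given 5′ to 3′ on the strand of the gene, with the matches in capitals.
Ltf, chr9:111019042-111019270, plus strand: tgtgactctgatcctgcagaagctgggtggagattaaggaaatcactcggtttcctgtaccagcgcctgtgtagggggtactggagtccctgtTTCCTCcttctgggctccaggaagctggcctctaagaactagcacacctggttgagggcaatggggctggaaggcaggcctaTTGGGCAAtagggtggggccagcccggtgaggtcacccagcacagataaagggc
Ngp, chr9:110419558-110419746, plus strand: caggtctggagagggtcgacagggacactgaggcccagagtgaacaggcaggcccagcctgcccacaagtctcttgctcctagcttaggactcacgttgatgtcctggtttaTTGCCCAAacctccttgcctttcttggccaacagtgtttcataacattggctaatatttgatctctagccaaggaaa
Mmp8, chr9:7558179-7558428, plus strand: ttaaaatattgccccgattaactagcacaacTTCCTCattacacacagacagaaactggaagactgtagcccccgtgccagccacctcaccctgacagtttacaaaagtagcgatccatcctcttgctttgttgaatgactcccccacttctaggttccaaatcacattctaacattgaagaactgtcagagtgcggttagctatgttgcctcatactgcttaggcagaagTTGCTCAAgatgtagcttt
Lyz2, chr10:117282322-117282522, minus strand: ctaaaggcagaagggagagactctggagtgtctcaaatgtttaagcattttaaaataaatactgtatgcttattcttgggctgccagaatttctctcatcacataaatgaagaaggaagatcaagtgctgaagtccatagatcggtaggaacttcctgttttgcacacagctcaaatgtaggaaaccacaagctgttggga
In Ltf the capitals are a PU.1 core and then a C/EBP match, in Ngp a C/EBP match, and in Mmp8 a PU.1 core and then a C/EBP match. Camp, Ngp and Ltf lie on chromosome 9 with gaps of 570 kb and 596 kb between neighbours, and Mmp8 lies elsewhere on the same chromosome.

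In granulocytes the members were among the most abundant transcripts of all. Lyz2, Camp, Lcn2 and Ltf ranked 1, 2, 3 and 6 of all symbols in the control library. In the CKO-labelled library they ranked 3, 5, 7 and 8, and Ngp ranked 2. These ranks were taken with S100a8, S100a9 and Ngp at 0 in the control library and S100a9 at 0 in the CKO-labelled one. The ranks in control are therefore too high by an unknown number of places, and the shift between libraries is not a result by genotype. The 8 members with values in both libraries summed to 94152 and 78920 FPKM. Their order was the same in both libraries, Lyz2, Camp, Lcn2, Ltf, Mmp9, Mmp8, Cd177 and Itgb2l from high to low. Without replicates, the gaps between neighbours in that order have no spread to be set against.

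The iron-binding and antimicrobial proteins were at the top. Ltf encodes lactoferrin, which binds iron (chromosome 9, 111019271 to 111042767, plus strand, mm10, GENCODE vM21). It stood at 14240 and 11976 FPKM in control and CKO-labelled granulocytes. In cycling thymocytes it was at 1.16 and 1.20 FPKM, and quiescent thymocytes held 1.15 and 1.18 FPKM. The pre-B values were 3.99 and 2.61 FPKM in large pre-B cells, and 14.2 and 10.6 FPKM in small pre-B cells. The granulocyte libraries were thus far above the rest, and among the lymphoid libraries the small pre-B cells were highest. Camp encodes the cathelicidin from which an antimicrobial peptide is cut (chromosome 9, 109847379 to 109849617, minus strand). Its values in the same order were 22665 and 18472, 1.22 and 1.603, 1.87 and 1.66, 9.97 and 5.50, and 33.4 and 22.0 FPKM. Ngp, the neutrophilic granule protein, is a relative of the cathelicidins (chromosome 9, 110419747 to 110423012, plus strand). It was the highest member in CKO-labelled granulocytes (39818 FPKM) and in each thymocyte library, with 4.56 and 4.78 FPKM in cycling cells and 3.67 and 4.31 FPKM in quiescent thymocytes. Large pre-B cells held 17.9 and 10.0 FPKM of Ngp, and small pre-B cells 56.5 and 38.6 FPKM. Both genotypes of small pre-B cells lay above both of large pre-B cells for these 3 genes.

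Lcn2 encodes lipocalin 2, which takes up the siderophores with which bacteria gather iron (chromosome 2, 32384633 to 32388252, minus strand). It stood at 20478 and 16357 FPKM in granulocytes, 1.97 and 2.07 FPKM in cycling thymocytes, 1.76 and 1.71 FPKM in the quiescent ones, 7.93 and 5.84 FPKM in large pre-B cells, and 18.8 and 14.1 FPKM in small pre-B cells. Lyz2 encodes lysozyme, which cleaves bacterial cell walls and is also made by monocytes and macrophages (chromosome 10, 117277331 to 117282321, minus strand). Its values in the same order were 24652 and 20368, 2.57 and 2.74, 1.91 and 2.43, 156 and 56.6, and 32.4 and 25.5 FPKM. Among the lymphoid libraries Lyz2 alone of the 9 was highest in large pre-B cells, and both large pre-B values lay above both small pre-B values. Lyz1 is a near copy of Lyz2, so how the authors divided reads between them is uncertain, and Lyz1 stood at 649 and 612 FPKM in granulocytes and at 4.89 and 1.39 FPKM in large pre-B cells.

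The proteases were lower. Mmp8, the neutrophil collagenase (chromosome 9, 7558456 to 7568485, plus strand), stood at 3531 and 3162 FPKM in granulocytes, 0.214 to 0.334 FPKM in thymocytes, 1.34 and 0.747 FPKM in large pre-B cells, and 2.13 and 1.72 FPKM in small pre-B cells. Mmp9, the gelatinase that defines the tertiary granules (chromosome 2, 164940780 to 164955850, plus strand), stood at 5004 and 4946 FPKM in granulocytes, 0.345 to 0.573 FPKM in thymocytes, 1.28 and 1.67 FPKM in large pre-B cells, and 3.70 and 2.73 FPKM in small pre-B cells. Both proteases again were highest in granulocytes and next highest in small pre-B cells.

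The surface proteins were the lowest of the 9 in granulocytes. Cd177 encodes a glycoprotein held on the neutrophil surface and in its secondary granules (chromosome 7, 24743983 to 24760311, minus strand). It stood at 2751 and 2817 FPKM in granulocytes, 0.170 to 0.283 FPKM in thymocytes, 1.58 and 1.26 FPKM in large pre-B cells, and 2.87 and 2.93 FPKM in small pre-B cells. Itgb2l, an integrin beta-2-like surface protein also called pactolus (chromosome 16, 96422288 to 96443619, minus strand), stood at 832 and 823 FPKM in granulocytes and at 0.0307 to 0.856 FPKM in the lymphoid libraries. It did not reach 1 FPKM in any of the 8 lymphoid libraries and lies 1727 kb from Dyrk1a.

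**Figure D1:**
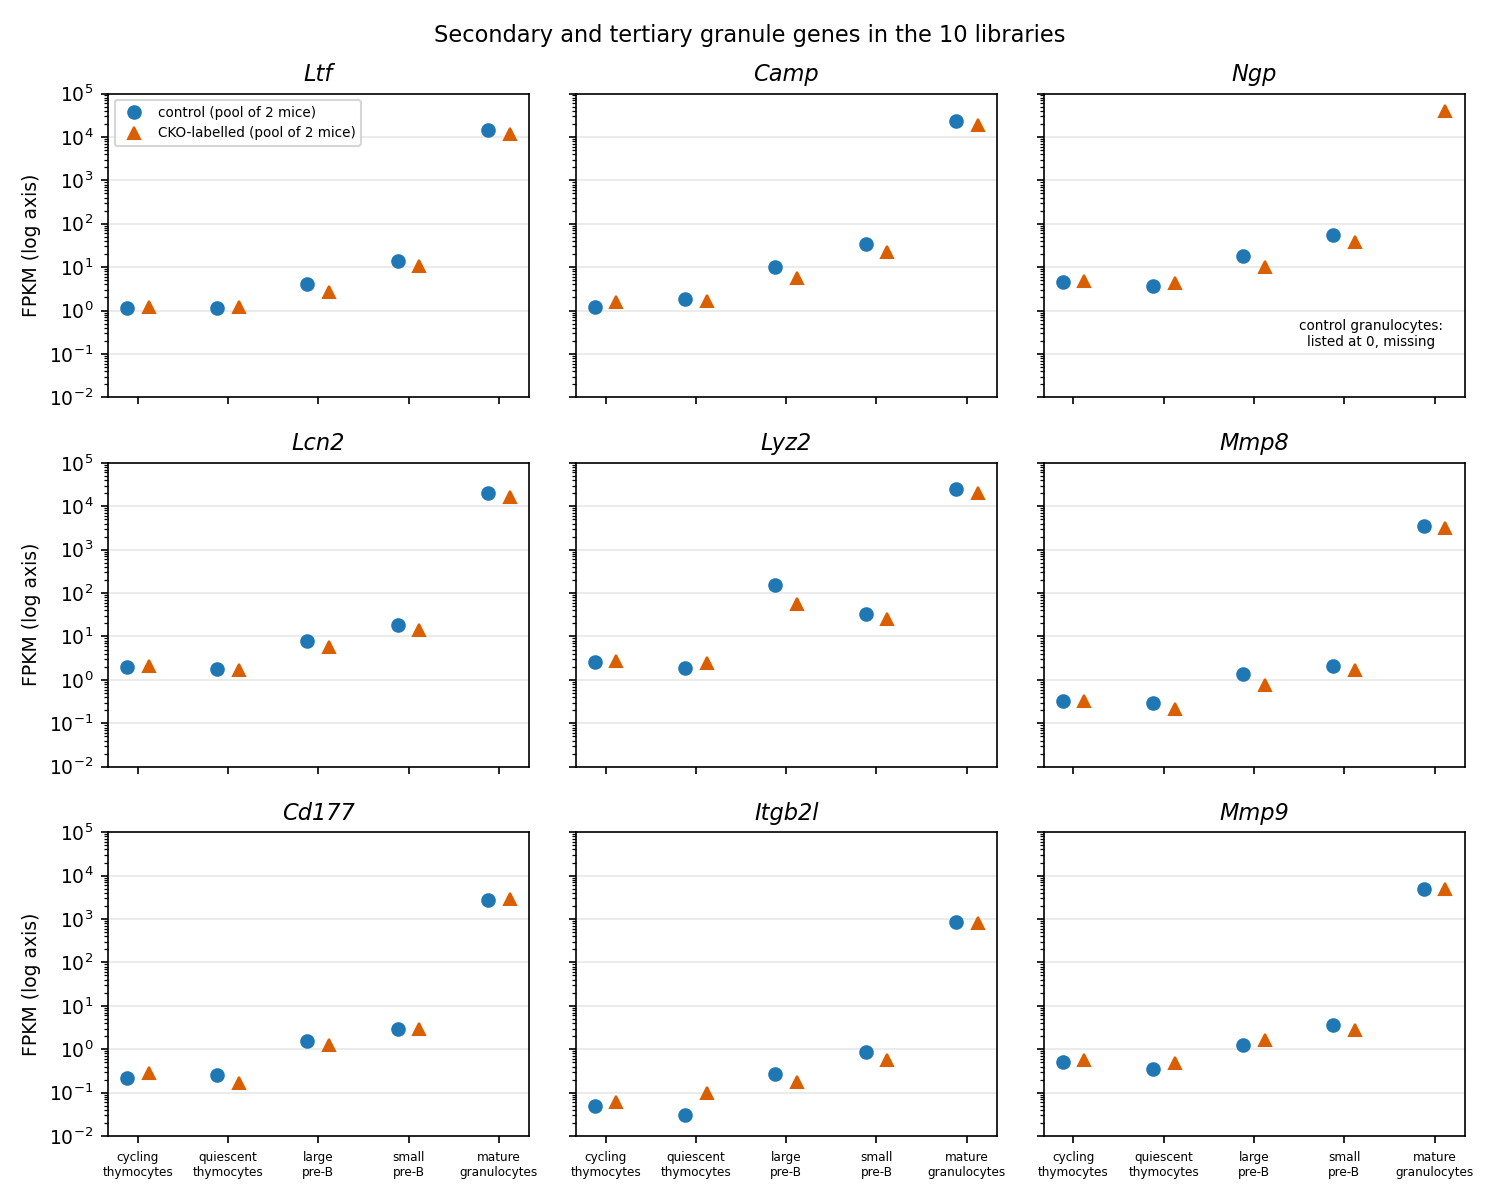
FPKM on a log axis of each member in the 5 populations, circles for the control and triangles for the CKO-labelled library of a population (each a pool of 2 mice). Granulocytes lie above every lymphoid library for each gene, by 130-fold for Lyz2 and by 553-fold or more for the other 8.

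Set against pre-B cells of the same tissue, the granulocytes were higher for 8 of 8 members that reached 1 FPKM in 2 or more lymphoid libraries, in a fit of limma over the 10 libraries with population and genotype as terms. The background was 41.1% of 11715 genes higher at a limma adjusted p of 0.05. The difference on the log2(FPKM + 1) scale was 10.77 for Ltf (SE 0.13), 10.37 for Camp (SE 0.19) and 8.72 for Lyz2 (SE 0.32), the smallest of these 8, with limma adjusted p of 2.12e-08, 4.95e-08 and 5.85e-07. For Itgb2l, which passed the filter only through the granulocytes, the value was 9.16. Populations of one genotype were all drawn from the same pool, and variation between animals is therefore outside what these p-values cover. Taking the 0 of Ngp as a value ended its call (2.93, limma adjusted p = 0.44, against 10.70 with the 0 missing).

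The low levels in the lymphoid libraries were ordered. Pre-B cells were higher than thymocytes for Ltf, Camp, Ngp, Lcn2 and Lyz2, which reached 1 FPKM in all 8 lymphoid libraries, against 36.5% of all genes higher. Mmp8, Mmp9 and Cd177 were also higher. Among the lymphoid libraries these 3 reached 1 FPKM only in pre-B cells, so counting them would favour that direction. The log2 difference was 3.97 for Lyz2 (SE 0.26, limma adjusted p = 1.97e-05), 2.58 for Camp (SE 0.16, 1.61e-05) and 1.79 for Ltf (SE 0.11, 1.42e-05). Itgb2l, under 1 FPKM in each of these libraries, was at 0.45 (SE 0.09, limma adjusted p = 0.0043). Both genotypes of pre-B cells lay above all 4 thymocyte libraries for each of the 9. A pseudocount of 5 in place of 1 ended the call of Itgb2l (0.11, limma adjusted p = 0.090), and taking the 0 of Ngp as a value ended its call (2.30, limma adjusted p = 0.47). A pseudocount of 0.1 to 5 moved the values of Mmp8 (0.29 to 1.95), Mmp9 (0.41 to 1.98) and Cd177 (0.44 to 2.69). In bulk samples, fewer cells of a type and less RNA per cell cannot be told apart.

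Of the 8 members other than Itgb2l, small pre-B cells were higher than large pre-B cells for 7, against 22.2% of all genes higher. Lyz2 was lower, against 19.1% of all genes lower. The log2 difference was 1.74 for Camp (SE 0.23, limma adjusted p = 0.0036), 1.73 for Ngp (SE 0.26, 0.0060), 1.65 for Ltf (SE 0.15, 0.0026) and 1.14 for Lcn2 (SE 0.14, 0.0034). The values of the low genes depended on the pseudocount. Mmp9 was at 0.76 (0.34 to 1.07 over pseudocounts of 5 to 0.1), Cd177 at 0.69 (0.30 to 0.99), Mmp8 at 0.53 (0.20 to 0.87) and Itgb2l, again under 1 FPKM, at 0.49 (0.13 to 1.34). Lyz2 stood at −1.68 (SE 0.36, limma adjusted p = 0.013). With a pseudocount of 5 the call of Mmp8 (limma adjusted p = 0.090) and that of Itgb2l (0.19) were lost, and taking the 0 of Ngp as a value ended its call (0.75).

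Each lymphoid level was then divided by the granulocyte level of the same genotype. For the members other than Lyz2 the share was 0.00369% to 0.0126% in thymocytes, 0.0211% to 0.0574% in large pre-B cells and 0.0545% to 0.147% in small pre-B cells. Within a library these members lay within 2.54-fold of each other, although their granulocyte levels span a far wider range. Lyz2 stood with them in thymocytes (0.00775% to 0.0135%) and in small pre-B cells (0.132% and 0.125%). In large pre-B cells it stood apart, at 0.634% in control and 0.278% in the CKO-labelled library, 16.7 and 10.1 times the median of the others.

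In the same large pre-B libraries, markers of other cells were also present. Mpo stood at 365 and 159 FPKM there, 74.8% and 76.3% of its granulocyte level, against 1.33% and 2.19% in small pre-B cells. The primary granule protease Elane was at 251 and 115 FPKM and the 8 primary granule genes summed to 962 and 424 FPKM. The monocyte genes Csf1r (7.15 and 2.75 FPKM) and Ly6c2 (216 and 79.0 FPKM) were there as well, and the 9 genes of the monocyte and macrophage list summed to 307 and 122 FPKM, against 16.0 and 130 FPKM in small pre-B cells. None of these 9 is listed at 0 in a pre-B library. The 7 erythroid genes summed to 390 and 212 FPKM in large and 27.7 and 23.0 FPKM in small pre-B cells. The part of these markers in the level of Lyz2 was not tested.

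**Figure D2:**
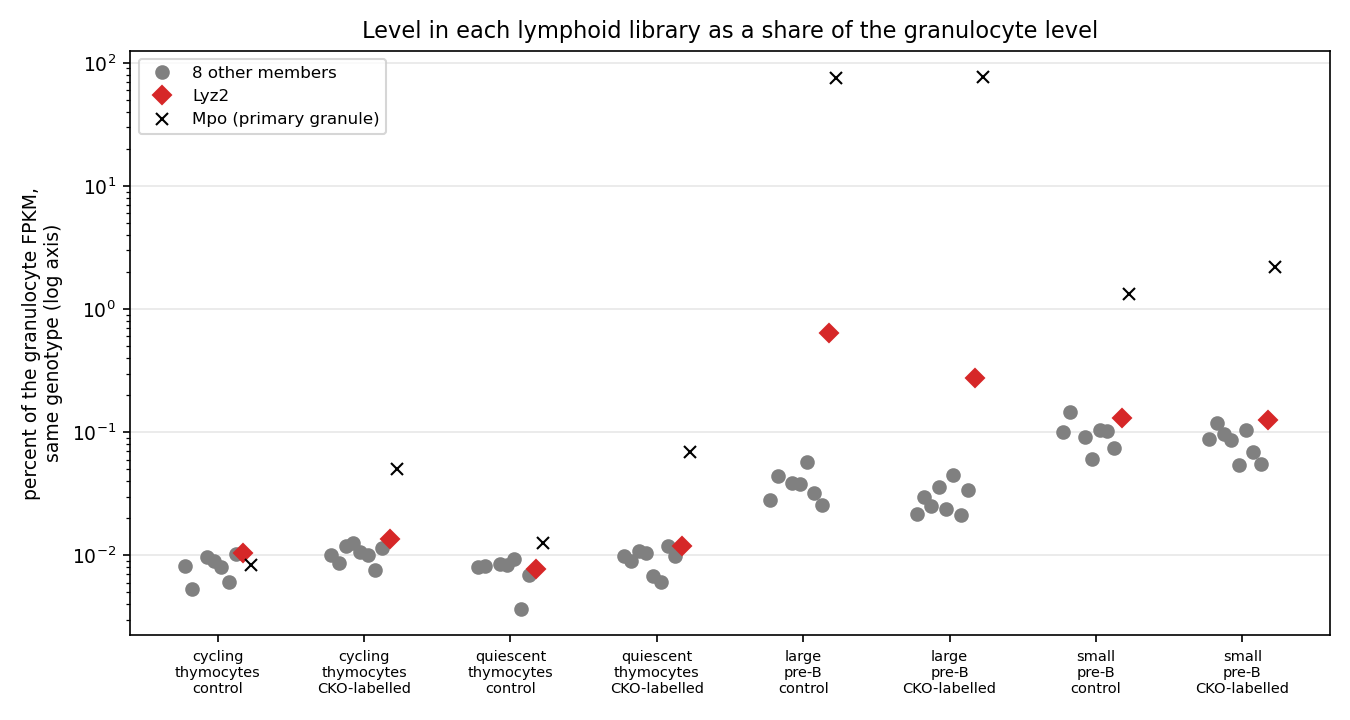
Level of each member in the 8 lymphoid libraries as a percent of the granulocyte level of the same genotype, on a log axis, with Lyz2 as diamonds, the other members as circles and Mpo as crosses (Ngp has no value in control). Lyz2 leaves the other members in large pre-B cells only, where Mpo stands at 74.8% and 76.3%.

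Over the 8 lymphoid libraries, which share their pools and library type, log2 levels of the members other than Lyz2 moved together, with Pearson r of 0.93 to 0.99 over 28 pairs (median 0.98). The 8 pairs with Lyz2 had r of 0.58 to 0.79 (median 0.73), while Lyz2 had r of 0.94 with Mpo and 0.96 with Ly6c2, and the other 8 members had 0.30 to 0.56 and 0.44 to 0.72 with these. Both S100a8 and S100a9, neutrophil genes that are high in these libraries (up to 272 and 208 FPKM, in control small pre-B cells), had r of 0.97 and 0.98 with Ltf and of 0.805 and 0.767 with Lyz2. These are descriptions over 8 libraries.

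Other genes were ranked by likeness to the mean log2 level of the members other than Ngp, with Lyz2 kept in that mean. The most alike over all 10 libraries, by Pearson r among 5721 candidates, were Pglyrp1 (0.999), Dhrs7, Zbtb7b, Ifitm6, Hmga2-ps1, Retnlg, Fam129a and Kcnj2. Pglyrp1 encodes a peptidoglycan recognition protein of these granules and stood at 4392 and 3519 FPKM in granulocytes. With granulocytes so far above the rest, 111 candidates exceeded 0.99. Over the 8 lymphoid libraries alone the most alike were Gas7 (0.998), Bst1, Rhbdd1, Stambpl1, Rrm2b, Myadm, Pigv and Syk. There 24 of 5719 candidates exceeded 0.99. Candidates in both rankings had 10 FPKM or more in both granulocyte libraries. Gas7, Stambpl1, Rrm2b and Syk reached more in a lymphoid library than in granulocytes (Syk up to 489 FPKM, against 254 FPKM). Bst1, Rhbdd1, Myadm and Pigv did not. Likeness over the lymphoid libraries thus did not mean a granulocyte pattern.

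By genotype, no member passed the test over the 5 populations, against 0.0512% of all genes called in either direction (6 of 11715). At an unadjusted p under 0.05 there was 1 of 9, Lcn2, against 16.8% of all genes. Lcn2 had a log2 difference of −0.22 (SE 0.09, lower in 4 of 5 pairs, limma adjusted p = 0.29), Camp −0.30 (SE 0.14, lower in 4 of 5, adjusted p = 0.33) and Lyz2 −0.35 (SE 0.23, lower in 3 of 5, adjusted p = 0.44). Without the large pre-B pair Lyz2 was at −0.077. Mmp9 (0.02, SE 0.10) and Cd177 (−0.03, SE 0.08) were nearest to 0. A p that misses the threshold does not show that the levels were alike.

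Within a population there is 1 library per genotype and hence no test. The rule for a difference was a log2 ratio of 1 or more in size and 5 FPKM or more in the higher library. In granulocytes 0 of 8 members did, against a background of 2.33%. The log2 ratio was −0.25 for Ltf, −0.30 for Camp, −0.32 for Lcn2 and −0.28 for Lyz2, that is changes of −15.9%, −18.5%, −20.1% and −17.4%. It was −0.16 for Mmp8, and lay between −0.02 and 0.03 for Mmp9, Cd177 and Itgb2l. The sum of the 8 made up 11.3% of all FPKM in control and 7.35% in CKO-labelled granulocytes, and 11.3% and 10.0% of the sum without S100a8, S100a9 and Ngp.

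In large pre-B cells 1 of 4 members at 5 FPKM or more differed, Lyz2 with a log2 ratio of −1.45, against a background of 1.84%. The other members there were at −0.78 for Ngp, −0.76 for Camp, −0.47 for Ltf, −0.42 for Mmp8, −0.38 for Lcn2, −0.19 for Cd177, −0.11 for Itgb2l and 0.23 for Mmp9. The Mpo, Elane, Csf1r and Ly6c2 values given above were lower in the same library. In small pre-B cells 0 of 5 members differed, against a background of 6.3%. There 8 of 9 were lower, from −0.58 for Camp to 0.03 for Cd177, and the median over all genes at 5 FPKM or more was −0.10. In thymocytes no member reached 5 FPKM, so none could be called (backgrounds 0.954% in cycling and 5.26% in quiescent cells), and log2 ratios lay between −0.11 and 0.24.

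The difference of the genotype effect between pre-B cells and thymocytes was tested in a further limma fit over the 8 lymphoid libraries, added after the values were seen. No member of 8 passed, against 0.00899% of 11126 genes. No member reached 5 FPKM in thymocytes, and on log2(FPKM + 1) changes of such low genes look smaller. Other pseudocounts were not tried for this fit, so how far the differences below depend on that scale is not known. The differences ran from −1.04 for Lyz2 (SE 0.37, limma adjusted p = 0.30) and −0.78 for Ngp (SE 0.17, 0.16) to −0.07 for Cd177, and 4 of 8 had an unadjusted p under 0.05 against 14.4% of all genes.

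**Figure D3:**
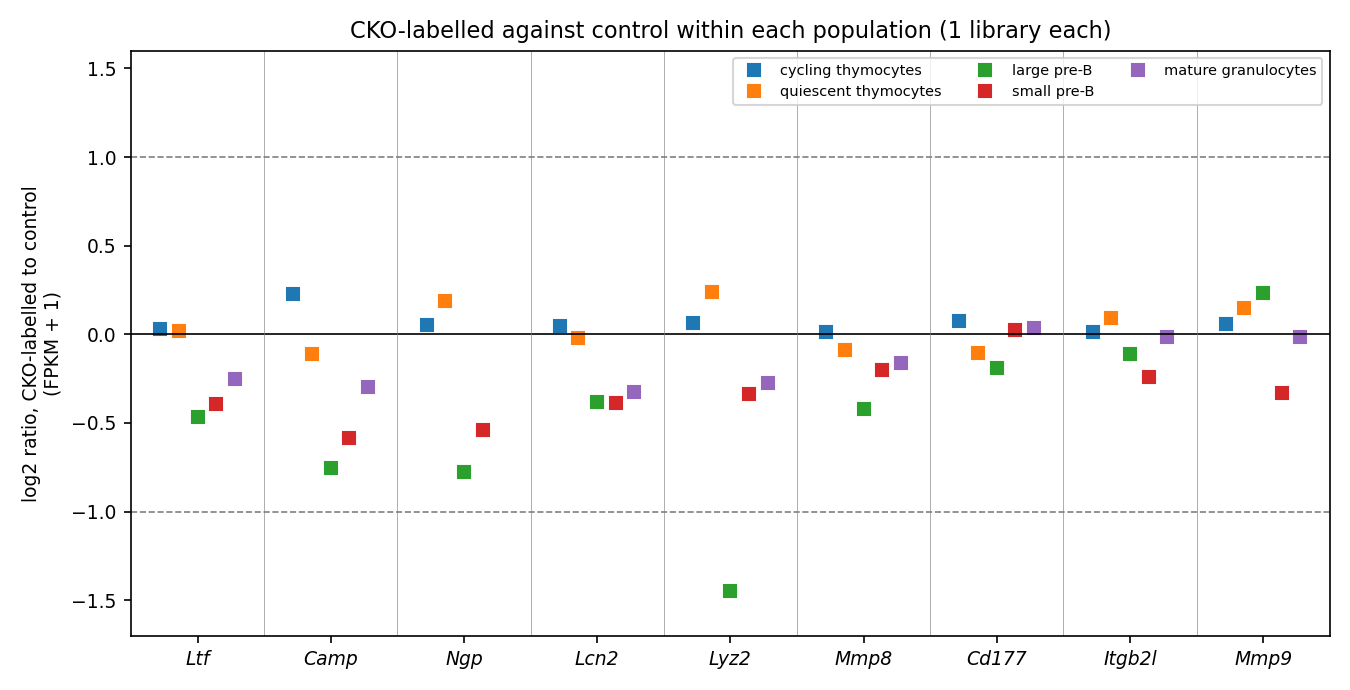
log2 ratio of FPKM + 1, CKO-labelled to control, of each member in each population (1 library each), with dashed lines at a ratio of 1 either way. Only Lyz2 in large pre-B cells (−1.45) passes a line.

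Other granule genes were set beside the members in the granulocyte pair. In that pair 2.33% of all genes at 5 FPKM or more had a 2-fold ratio in either direction. Of 8 primary granule genes, 8 were lower in the CKO-labelled library, 4 of them by 2-fold or more, and the median log2 ratio was −0.95. Among them were Mpo (489 and 209 FPKM), Elane (458 and 207) and Prtn3 (325 and 109). The 8 members had a median of −0.20 with 7 lower, against −0.01 over all genes at 5 FPKM or more. Of 15 other secondary and tertiary granule genes with a ratio, 13 were lower (median −0.27), and Fcnb, which encodes ficolin B, was the 1 at least 2-fold lower (383 and 162 FPKM). Chil3, a chitinase-like protein, stood at 8222 and 6820 FPKM and Anxa1, annexin A1, at 6178 and 5473 FPKM.

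Of 13 late neutrophil genes, 12 were lower (median −0.16), and 3 were at least 2-fold lower, against 2.33% of all genes in either direction. Those 3 were Stfa1, Stfa2 and Stfa3, near copies of each other whose reads the counting could divide, so their values are uncertain. Retnlg, a resistin-like gene, stood at 19832 and 18255 FPKM. The regulators had a median of −0.12 over 6 genes. Cebpe, which encodes C/EBP epsilon, stood at 454 and 458 FPKM, Spi1, which encodes PU.1, at 878 and 827 FPKM, Cebpd at 265 and 238 FPKM and Gfi1 at 26.0 and 19.3 FPKM. Among partners of the member proteins, Fpr2, a receptor for cathelicidin, stood at 1170 and 1295 FPKM, Timp2, an inhibitor of matrix metalloproteinases, at 160 and 150 FPKM, Pecam1, a partner of CD177, at 5.31 and 3.92 FPKM and Lrp1, a receptor that takes up lactoferrin, at 2.38 and 1.003 FPKM. No gene of these lists passed the test of genotype over 5 populations.

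Markers of other cells also differed within the same granulocyte pair. In these lists and those above, a ratio was counted for genes above 0 in both libraries and at 1 FPKM or more in the higher. Epor, Klf1, Il5ra and Ptcra fell short of 1 FPKM and are not in the counts below, while the sums hold every gene found. The erythroid list was higher in the CKO-labelled library for 5 of 5 genes (median 1.56; its sum was 82.5 and 313 FPKM), 6 of 6 B lineage genes were higher (13.4 and 19.6 FPKM) and 5 of 5 T lineage genes lower (17.6 and 7.74 FPKM). The eosinophil and basophil list summed to 385 and 509 FPKM, with 4 of 7 genes higher and 3 lower. Prg2, the eosinophil major basic protein, was at 93.6 and 253 FPKM and the basophil protease Prss34 at 52.1 and 38.6 FPKM. The monocyte and macrophage list summed to 2972 and 2379 FPKM, with 7 of 9 genes lower. Most of that sum was Ly6c2 (2578 and 2158 FPKM). F13a1 was at 29.7 and 8.62 FPKM, while the macrophage complement genes C1qa (2.45 and 6.68 FPKM) and C1qb (2.42 and 6.57 FPKM) were the 2 higher. Their part in the ratios of the members was not tested.

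**Figure D4:**
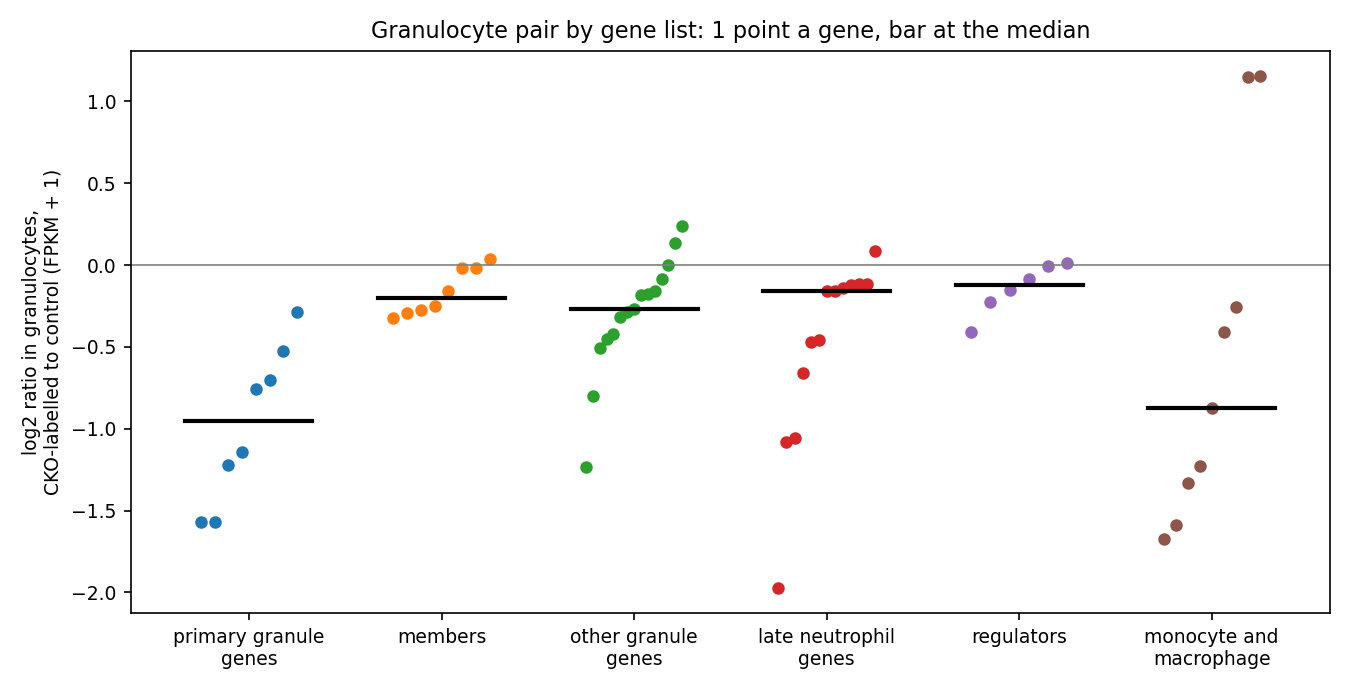
log2 ratio in the granulocyte pair, CKO-labelled to control (FPKM + 1), with 1 point a gene and a bar at the median of each list. Primary granule genes lie lowest of the granule lists (median −0.95), and the members lie between −0.32 and 0.03.

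Across the populations the other lists did not all follow the members. In granulocytes against pre-B cells, 41.1% of all genes were higher. In the lists, 15 of 15 other granule genes, 7 of 8 primary granule genes, 13 of 15 late neutrophil genes and 6 of 6 regulators were higher. The other 2 late genes were S100a9, called lower with its 0 in both granulocyte libraries, and S100a8, not called with its 0 in the control library. These zeros were kept as values in the fit, unlike that of Ngp, so neither call describes these genes. Several listed genes, among them Stfa1, Stfa2, Stfa3, Olfm4, Orm1, Mmp25, Il1b, Clec4d, Il1r2 and Cxcr2, were under 1 FPKM in every lymphoid library. They passed the filter only through the granulocytes, so their direction was fixed in advance and the counts that hold them are not a test. In small against large pre-B cells, where 22.2% of all genes were higher and 19.1% lower, 5 of 8 primary granule genes were lower and none higher (median −2.98), 6 of 15 late neutrophil genes were higher and 1 lower, 4 of 9 monocyte genes and 7 of 7 erythroid genes were lower. Of 15 other granule genes 2 were higher and 4 lower, near the shares over all genes. S100a8, not called in this fit, stood at 104 and 84.1 FPKM in large and at 272 and 221 FPKM in small pre-B cells.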

How the data were processed

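RNA sequencing was measured in 10 libraries, each from 2 pooled mice. The labels' protocols give RNeasy total RNA and standard Illumina libraries, and the submitters' processing notes name TopHat2 2.0.8b, Cuffdiff 2.1.1 and mm10. The unit of the deposited values is not named and was read as FPKM from those tools and the values; the annotation and strand setting are not given in the sources used here. A symbol on several rows was represented by its highest row.

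Deposited FPKM were taken to log2(FPKM + 1), on which changes of low genes look smaller. Genes with 1 FPKM in 2 or more libraries (11715) were fitted with limma 3.58.1 (R 4.3.3, trend, Benjamini-Hochberg, threshold 0.05), with population and genotype as terms and 4 contrasts; Ngp was fitted on 9 libraries. The difference between lineages was a further fit, added after the values were seen. At 2-fold, 100% of 200 changed genes were recovered on simulated data of 11706 genes for the genotype contrast, with 6 unchanged genes called. Each simulated gene had the same noise, and the changed genes were drawn from those well expressed in every population. The members are low in thymocytes, so this recovery does not carry over to them. The members and lists were chosen with earlier results of these data known. All 9 members are named; of each other list the rule took the 3 most abundant genes in granulocytes and the 1 with the largest ratio, plus Cebpe, of which some are given, and the 8 genes most alike in pattern. Lyz1, Stfa1, Stfa2, C1qa and C1qb were named after their values were seen. Alternatives were other pseudocounts, filters, scaling, blocks and leaving out a pair. Scripts ran in Python 3.11.15.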

Additional observations from a re-analysis of the deposited data

How the results depend on the processing

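With 1 library per group no replicate could be left out. Over the alternatives tried for genotype (pseudocounts, filters, scaling, no trend, no population block, leaving out each population pair), no member passed the limma threshold. Mmp9, near 0 at first, turned to −0.0088 with a pseudocount of 5, −0.015 without the quiescent thymocyte pair and −0.036 without the large pre-B pair, and Cd177 turned to 0.0072 without the large pre-B pair. Lyz2 kept its sign but was at −0.077 without the large pre-B pair. Ngp turned to 2.84 with its 0 taken as a value and to 2.102 with no population block. In the first setting the 0 stood against 39818 FPKM in the CKO-labelled granulocytes. In the second that library had no control counterpart, as the 0 was missing. The cause of the turns of Mmp9 and Cd177 was not tested. The genes called over all fell from 6 to 2 with a pseudocount of 5 and to 1 with no filter, or without the quiescent thymocyte or the large pre-B pair. Within populations, a log2 ratio of 0.58 in place of 1 gave 4 members in place of 1, adding Camp and Ngp in large pre-B cells and Camp in small pre-B cells. Without a filter, Itgb2l in small against large pre-B cells missed the threshold (limma adjusted p = 0.054). The genotype fit pairs the libraries of a population, and the labels carry no replicate numbers for a further block. Depth is not known, so the precision of values under 1 FPKM is not known either.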
